A study of Mus musculus with 2 samples.

Results

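This report follows the genes of 10 innate pattern-recognition receptors that share a place on phagocytes, Tlr2, Tlr4, Tlr7, Tlr9, Cd14, Clec7a, Clec4d, Clec4e, Fpr1 and Fpr2, through single cells from the lungs of mice bearing 4T1 breast tumors. The members were taken by gene symbol from a matrix of 32285 gene rows, and 9 of the 10 could be measured. Clec7a was not analysed here. Both groups were 12-week-old female BALB/cJ mice that carried 4T1 tumors grown from 100000 inoculated cells, and both were treated through a vein every 3 days from day 1 for 5 doses, with saline in one group and with cargo-free PLG (poly(lactide-co-glycolide)) nanoparticles (NP) in the other. Lungs were taken on day 14. Each group is 1 library of cells pooled from 4 mice according to the labels, so no difference between groups could be tested, and every interval given covers the error of counting molecules (UMIs) or cells and not the variation between mice. 4T1 is a BALB/c mammary carcinoma line that spreads to the lung and drives a large expansion of neutrophils and monocytes.

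Toll-like receptors bind conserved microbial molecules or nucleic acids and signal through MyD88 or TRIF to NF-kappaB and interferon regulatory factors. Tlr2 recognizes bacterial lipoproteins at the cell surface, Tlr4 recognizes lipopolysaccharide with its partners Ly96 and Cd14, and Tlr7 and Tlr9 sense single-stranded RNA and unmethylated DNA in endosomes. Clec4e (Mincle) and its partner Clec4d are C-type lectin receptors for mycobacterial glycolipids that signal through the Fc receptor gamma chain, Syk and Card9, and Clec4e also senses products of dying cells. Fpr1 and Fpr2 are G-protein-coupled receptors for formylated peptides of bacteria and mitochondria, and they guide neutrophils and monocytes to sites of damage.

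After filtering, 8662 saline cells and 8333 NP cells remained, with a median of 6474.5 and 6008 UMIs per cell, and 21 barcodes occurred in both libraries. Cells were sorted into classes by marker genes, and each class name stands for cells that resemble that type ("neutrophil" for neutrophil-like cells). Neutrophils made up 64.7% of saline cells and 37.2% of NP cells. The 4 phagocyte classes compared below held 5608 and 3101 neutrophils, 644 and 1032 classical monocytes, 91 and 352 non-classical monocytes, and 165 and 222 alveolar macrophages in saline and NP. Of the classes with fewer cells, 16 and 35 interstitial macrophages, 43 and 44 conventional dendritic cells, 18 and 34 plasmacytoid dendritic cells and 2 and 31 mature dendritic cells were counted. Clusters left unnamed because of the markers of another cell type held 312 saline and 401 NP cells. Haemoglobin genes were not counted against a monocyte name, and a sub-cluster led by 4 of them, with no classical marker among its top 10 genes, holds 402 of the 644 saline and 113 of the 1032 NP classical monocytes. The comparison of classical monocytes is therefore also given without it. Other classical sub-clusters also had no classical marker among their top 10 genes and were kept. They were led by Cxcl9 and Treml4 (60 saline and 313 NP cells), Ifi44 and Isg15 (32 and 266) and Rsad2 and Cxcl10 (6 and 23). Levels are given as UMIs of a gene per 1000000 UMIs of the class (CPM), with 95% Poisson intervals.

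Each receptor had its own distribution over cell classes. Tlr2 was highest in alveolar macrophages, at 329 CPM (309 to 351) in saline and 435 CPM (416 to 455) in NP. Interstitial macrophages followed at 145 and 211 CPM and classical monocytes at 111 and 144 CPM, and the intervals of these neighbours overlapped in saline. Neutrophils held 83.7 CPM in saline and 105 CPM in NP. In total 60.3% of all Tlr2 UMIs of saline cells came from neutrophils, against 30.5% of those of NP cells, in which neutrophils were also a smaller part of the cells.

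Tlr4 gave few UMIs, 1824 in saline and 1633 in NP cells. Alveolar macrophages were highest with 61.8 CPM (53.05 to 71.5) in saline and 59.6 CPM (52.5 to 67.4) in NP, and neutrophils followed with 26.7 and 30.8 CPM. Classical monocytes, at 18.1 and 18.5 CPM, lay within the interval of endothelial cells in saline, at 18.5 CPM. Endothelial cells line the vessels through which the particles travel, and 6.71% of saline and 5.61% of NP endothelial cells carried a Tlr4 UMI. Non-classical monocytes had only 5 and 35 Tlr4 UMIs, so no ratio was formed for them.

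Tlr7 took a different place. It was highest in plasmacytoid dendritic cells in saline, at 159 CPM (109 to 225), a cell type known for responding to viral RNA, and in non-classical monocytes in NP, at 133 CPM (120 to 146). These 2 classes and alveolar macrophages (71.4 and 86.2 CPM) had overlapping neighbouring intervals in both libraries. Classical monocytes had 50.2 and 47.2 CPM. Neutrophils had 3.20 and 2.94 CPM, and conventional dendritic cells had no Tlr7 UMI in either library. Tlr9 was close to the limit of detection, with 9 UMIs in saline and 15 in NP over all cells, of which 6 and 8 lay in classical monocytes. None of 5608 saline and 3101 NP neutrophils had a Tlr9 UMI, where a floor of 3 counts would be 0.0535% and 0.0967% of the cells. Only 1 UMI was found in 52 plasmacytoid dendritic cells.

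Cd14, the co-receptor that hands lipopolysaccharide to Tlr4, was broad. Interstitial macrophages had 1491 CPM in saline and 1429 CPM in NP, and all 16 and 35 of these cells carried a Cd14 UMI. Neutrophils had 1073 CPM (1064 to 1082) and 1296 CPM (1282 to 1311), and classical monocytes 651 and 808 CPM. Alveolar macrophages, which had the most Tlr2 and Tlr4, had only 192 and 289 CPM of Cd14, below classical monocytes in both libraries.

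Clec4d and Clec4e marked neutrophils. Clec4d stood at 225 and 257 CPM in neutrophils against 37.1 and 38.8 CPM in classical monocytes, and neutrophils held 89.9% of its UMIs in saline and 76.3% in NP. Clec4e stood at 506 CPM (500 to 512) and 666 CPM (656 to 677) in neutrophils, followed in the large classes by non-classical monocytes with 159 and 315 CPM and classical monocytes with 138 and 164 CPM. Interstitial macrophages also had Clec4d, at 189 and 142 CPM. In 31 mature dendritic cells of the NP library, Clec4e reached 1382 CPM (1283 to 1486), above every other class of that library, with Cd14 at 886 CPM and Fpr2 at 490 CPM. At least 1 Clec4e UMI was found in 80.6% of these cells, and the cell with most carried 77 of the 728 UMIs. The saline library held 2 such cells, too few to set beside them.

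In the saline library, Fpr1 and Fpr2 were highest in neutrophils and alveolar macrophages. Fpr1 was 180 CPM (176 to 184) in saline neutrophils and 143 CPM (129 to 157) in saline alveolar macrophages, and 179 and 162 CPM in NP, where their intervals overlapped. Fpr2 was 227 and 278 CPM in neutrophils and 331 and 385 CPM in alveolar macrophages. Classical monocytes had almost no Fpr1, with 1.96 CPM (1.20 to 3.03) in saline and 3.42 CPM (2.60 to 4.43) in NP, below the T cells described next.

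**Figure D1:**
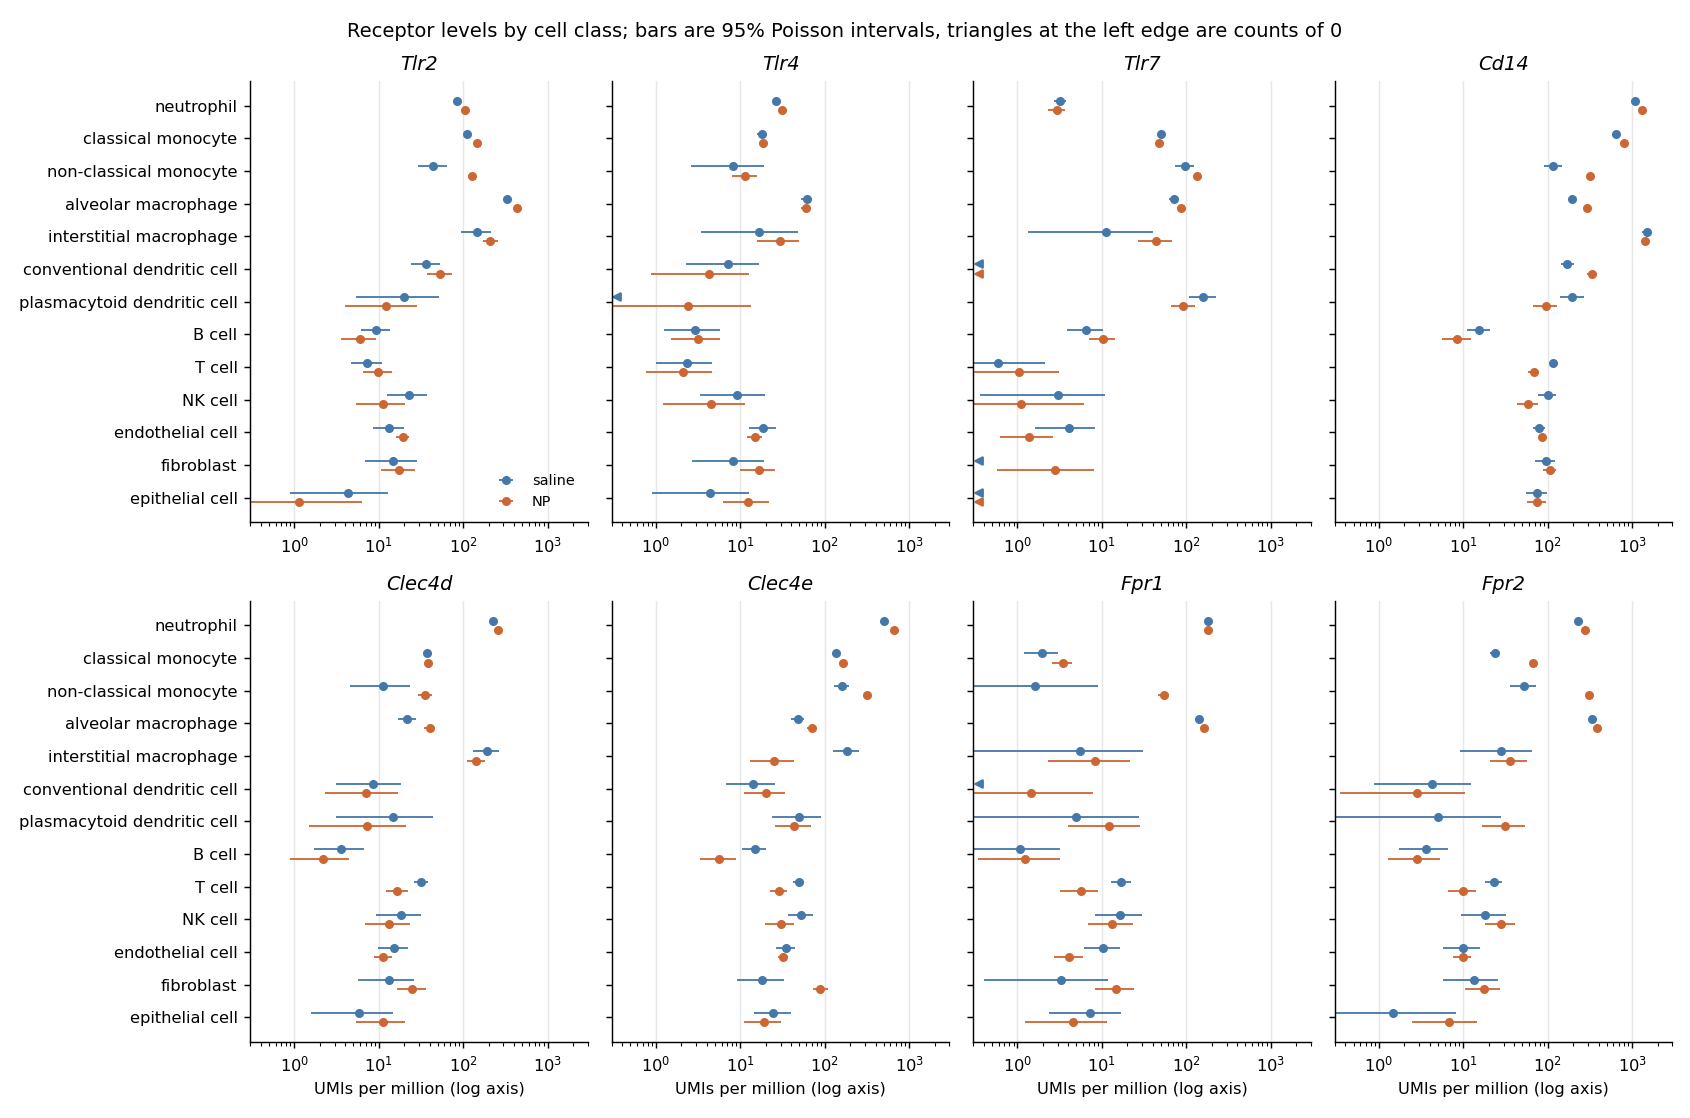
Level of 8 receptors (CPM, log axis) in 13 cell classes of the saline (blue) and NP (orange) libraries, with 95% Poisson intervals and triangles for a count of 0. Among these 13 classes, which leave out mature dendritic cells, Clec4d and Clec4e are highest in neutrophils, Tlr2 and Tlr4 in alveolar macrophages, and in non-classical monocytes the NP points of Fpr1 and Fpr2 lie far to the right of the saline points.

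T cells, which are not known to carry these receptors at such levels, were set beside the phagocytes. A UMI of Cd14 was found in 12.0% of saline and 8.62% of NP T cells, of Clec4e in 9.40% and 5.91%, of Fpr2 in 5.60% and 2.46%, and of Tlr2 in 3.6% and 3.20%, at median depths of 6270 and 6442 UMIs. In the same order, the shares of neutrophils were 88.5% and 89.7%, 90.5% and 92.9%, 60.5% and 61.8%, and 42.6% and 46.5%. In T cells Cd14 was 117 CPM in saline and 68.4 CPM in NP, and Fpr1 17.0 and 5.61 CPM. In T cells Cd14, Clec4d, Clec4e, Fpr1 and Fpr2 were lower in NP than in saline, and Tlr2 was 7.34 CPM in saline and 9.82 CPM in NP. The barcodes of at most 50 UMIs, which hold free RNA, had 808 CPM of Cd14 in saline and 767 CPM in NP, 356 and 320 CPM of Clec4e, and 123 and 139 CPM of Fpr2. Free RNA was estimated at 0.377% of the UMIs of saline non-classical monocytes, scaled by erythroid markers, and at 0.828% of those of NP, scaled by neutrophil markers. The 2 estimates rest on different lists, so they are not ranked. In these cells it came to 3.05 and 6.35 CPM of Cd14, 1.34 and 2.65 CPM of Clec4e and 0.462 and 1.15 CPM of Fpr2.

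The comparison between treatments asked which phagocytes carried more or less of each receptor after NP. Non-classical monocytes, the patrolling monocytes that crawl along vessel walls, differed most in the number of receptors. Of the 7 receptors with at least 50 UMIs in this class over both libraries together, 6 (Tlr2, Cd14, Clec4d, Clec4e, Fpr1 and Fpr2) were at least 1.5-fold higher in NP, where 8.31% of 6484 genes tested lay that far above saline. None was 1.5-fold lower, against 8.53% of genes. The class held 616876 UMIs in saline and 3092679 in NP. Tlr2, Clec4d, Fpr1 and Fpr2 had under 50 UMIs in saline and entered the comparison only with their NP counts. The count of 6 is therefore a description and no support for a difference. Fpr1 and Clec4d are counted among the 6, although their saline shares of positive cells lay below those of saline T cells. Cd14 is counted too, although its saline level of 117 CPM was no higher than that of saline T cells, also 117 CPM. The median log2 ratio of the 7 receptors was 1.52, and that of all genes was -0.03.

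Fpr2 had the clearest separation. Its level was 51.9 CPM (35.5 to 73.2) in saline, from 32 UMIs, and 311 CPM (292 to 332) in NP, from 963 UMIs, a 6.003-fold ratio (4.22 to 8.83). It was found in 22.0% of saline and 74.1% of NP non-classical monocytes. The NP level lay above that of NP neutrophils, and the saline level lay well below that of saline neutrophils. Fpr1, its close relative, had 1 UMI in 91 saline cells and 168 UMIs in 352 NP cells, which gives 1.62 and 54.3 CPM and a ratio of 33.5 with a counting interval from 5.93 to 1331. A Fpr1 UMI was present in 28.7% of NP cells, no cell held more than 7, and 101 cells shared the 168 UMIs. The saline share of 1.10% lay below the 5.60% of saline T cells, so the size of the Fpr1 ratio is not read. The NP share lay above the 1.97% of NP T cells with a Fpr1 UMI. Estimated free RNA came to 23.5% of the Fpr1 level of saline and 0.999% of that of NP non-classical monocytes.

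Surface sensors of bacterial products were higher as well. Tlr2 was 43.8 CPM (28.8 to 63.7) in saline and 126 CPM (114 to 139) in NP, a 2.87-fold ratio (1.94 to 4.42). Cd14 was 117 CPM (91.3 to 147) in saline and 317 CPM (297 to 337) in NP, a 2.71-fold ratio (2.14 to 3.50). Neither pair of intervals overlapped, and how often this held over all genes of the class was not counted. The saline Cd14 level was no higher than that of saline T cells, also 117 CPM, while NP T cells had 68.4 CPM. The size of the Cd14 ratio is therefore not read. Clec4e was 159 CPM (129 to 194) and 315 CPM (295 to 335), a 1.98-fold ratio (1.61 to 2.46), and Clec4d was 11.3 CPM (4.56 to 23.4) from 7 UMIs and 35.6 CPM (29.2 to 42.9) from 110 UMIs, of which 15 lay in 1 cell. The 6.59% of saline cells with a Clec4d UMI lay below the 7.40% of saline T cells, and the 17.6% of NP cells above the 3.94% of NP T cells. The size of the Clec4d ratio is therefore not read either.

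The endosomal receptor Tlr7 differed less. It was 95.6 CPM (72.8 to 123) in saline and 133 CPM (120 to 146) in NP, a 1.39-fold ratio (1.06 to 1.86) with overlapping intervals. The share of non-classical monocytes with a Tlr7 UMI was 36.3% in saline and 59.9% in NP.

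NP cells of this class were deeper, with a median of 8086 UMIs against 6332 in saline, so shares were also taken after every cell was thinned to 1000 UMIs. Fpr2 then remained detectable in 3.30% (0.685 to 9.33) and 26.4% (21.9 to 31.4) of the cells of saline and NP, Cd14 in 13.2% (7.004 to 21.9) and 26.4% (21.9 to 31.4), Clec4e in 9.89% (4.62 to 17.9) and 22.4% (18.2 to 27.2), and Tlr2 in 4.40% (1.21 to 10.9) and 12.8% (9.48 to 16.7). The intervals of Fpr2 and Clec4e did not overlap, and those of Cd14 and Tlr2 did. How often such intervals overlap over all genes of the class was not counted, so this is not read as a result about the receptors. Thinned shares of the other receptors are not given here. Cells with none of the 9 receptors made up 69.2% of saline and 33.0% of NP non-classical monocytes at this depth, and those with 2 or more 8.79% and 27.3%.

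**Figure D2:**
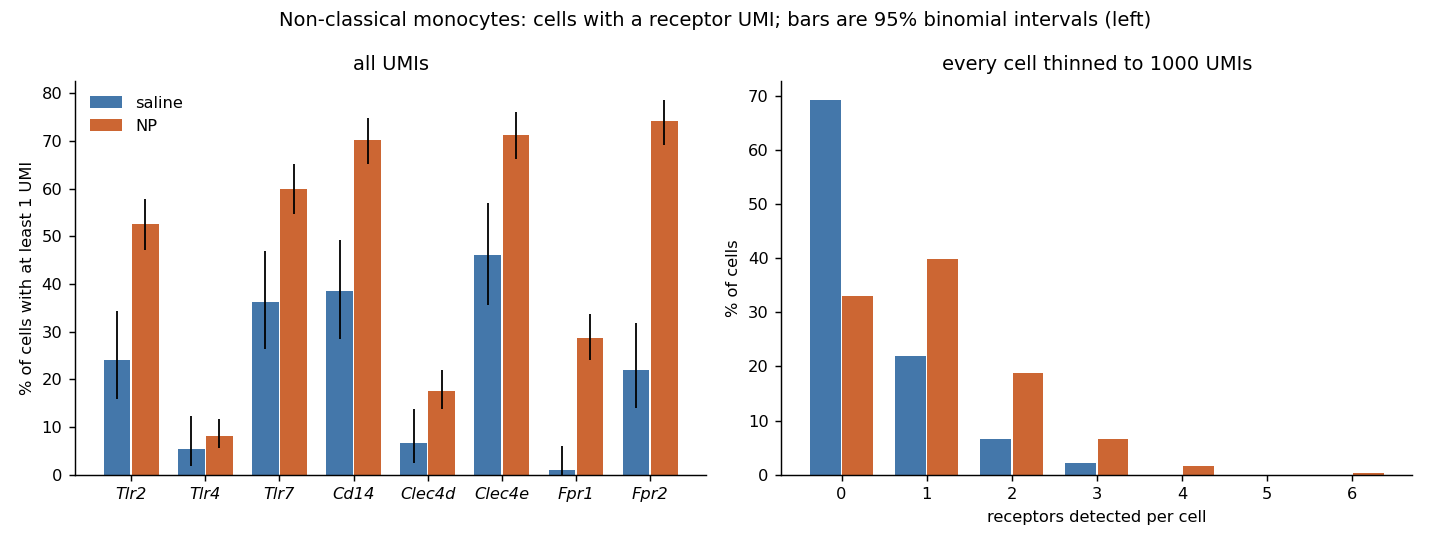
Left, percent of non-classical monocytes with at least 1 UMI of each receptor in saline (blue, 91 cells) and NP (orange, 352 cells), with 95% binomial intervals. Right, percent of these cells by the number of receptors detected after thinning to 1000 UMIs, where 69.2% of saline and 33.0% of NP cells had none.

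The neutrophil markers summed to less in NP non-classical monocytes, although 4 of the 12 were higher there than in saline. The 12 neutrophil markers summed to 2057 CPM in saline and 1030 CPM in NP non-classical monocytes, with 1 marker at 0 in saline and none in NP. Without the 2 saline cells and 1 NP cell that had 1% or more of their UMIs on this list, the log2 ratio of Fpr2 was 2.61 and that of Fpr1 5.03. The 10 classical monocyte markers summed to 3784 and 4835 CPM, 1 at 0 in saline, and the 10 non-classical markers to 6413 and 6541 CPM; the part of classical markers in the result was not tested. Where classes were taken from the marker score of each cell, the log2 ratio of Cd14 was 0.51 instead of 1.44, and after thinning, with 0 Fpr1 UMIs left in saline, that of Fpr1 was 0.16 against a floor of 3 counts.

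In classical monocytes, the inflammatory monocytes recruited from blood, Fpr2 stood apart from the other receptors. It was 23.8 CPM (20.9 to 27.0) in saline and 66.5 CPM (62.7 to 70.5) in NP, a 2.79-fold ratio (2.43 to 3.22), and 21.1% of the saline and 39.4% of the NP monocytes carried a UMI. The saline level lay within the interval of saline T cells, at 22.9 CPM (18.1 to 28.6), while NP T cells had 9.82 CPM. The size of the Fpr2 ratio is therefore not read. Saline classical monocytes were also deeper than saline T cells, with a median of 15471.5 against 6270 UMIs, which raises their share of positive cells. Fpr1 also passed 1.5-fold, at 1.75-fold (1.04 to 3.07) from 20 and 58 UMIs, but the 2.80% of saline cells with a Fpr1 UMI lay below the 5.60% of saline T cells, so no difference is read from it. With Fpr1 still counted, 2 of 8 receptors were higher by 1.5-fold, against 4.00% of 9830 genes, and none was lower, against 3.89%. Without the sub-cluster led by haemoglobin genes, 242 saline and 919 NP cells remained, and the log2 ratio of Fpr2 was 1.22 (0.958 to 1.501) instead of 1.48, and that of Fpr1, from 4 and 55 UMIs, 1.91 (0.47 to 3.84) instead of 0.81. The count of receptors higher by 1.5-fold was 2 there as well. The median log2 ratio was 0.28 for the 8 receptors and -0.05 for all genes.

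The other receptors of classical monocytes lay closer to 1. Cd14 was 1.24-fold (1.21 to 1.28), Tlr2 1.30-fold (1.21 to 1.39) and Clec4e 1.19-fold (1.12 to 1.27) higher in NP, with intervals of the ratio above 1. The log2 ratio of Tlr2 was -0.02 instead of 0.38 in thinned cells. Without the sub-cluster led by haemoglobin genes, the log2 ratios were 0.17 for Tlr2, 0.16 for Cd14 and 0.15 for Clec4e. Tlr4, Tlr7 and Clec4d had ratios of 1.02 (0.850 to 1.23), 0.940 (0.840 to 1.05) and 1.04 (0.919 to 1.19), intervals that include 1.

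The Fpr2 difference lay unevenly among classical monocytes. In the sub-cluster led by Cxcl9, Treml4 and H2-Ab1 (60 saline and 313 NP cells) Fpr2 was 32.5 CPM in saline and 130 CPM in NP, a log2 ratio of 2.00 (1.45 to 2.60). Treml4 is on the list of non-classical markers, and no classical marker was among the top 10 genes of this sub-cluster. How far its cells resemble non-classical monocytes was not tested. In the sub-cluster led by Ifi44 and Isg15, interferon-induced genes (32 and 266 cells), Fpr2 was 33.4 and 55.8 CPM. In the sub-cluster led by Hbb-bs, S100a8 and S100a9 (144 and 317 cells) Fpr2 was 28.03 and 30.8 CPM, a log2 ratio of 0.14 (-0.26 to 0.54). In the sub-cluster led by haemoglobin genes Fpr2 was 19.2 and 25.7 CPM, a log2 ratio of 0.42 (-0.12 to 0.93). Clec4e followed the same split, with 82.5 and 146 CPM in Cxcl9-led cells 181 and 195 CPM in Hbb-bs and S100a8-led cells, and 128 and 122 CPM in the sub-cluster led by haemoglobin genes. Saline levels weighted by the NP mix of the 5 sub-clusters gave 30.7 CPM of Fpr2, between the saline value of 23.8 and the NP value of 66.5. At clustering (Leiden) resolutions of 0.5 and 2 the log2 ratio of Fpr2 was 0.84 and 0.81 instead of 1.48, and that of Fpr1 turned to -0.56 at resolution 2. The 12 neutrophil markers summed to 4794 CPM in saline and 2291 CPM in NP classical monocytes, and the 5 erythroid markers to 821 and 104 CPM, so both lists were lower in the NP library.

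**Figure D3:**
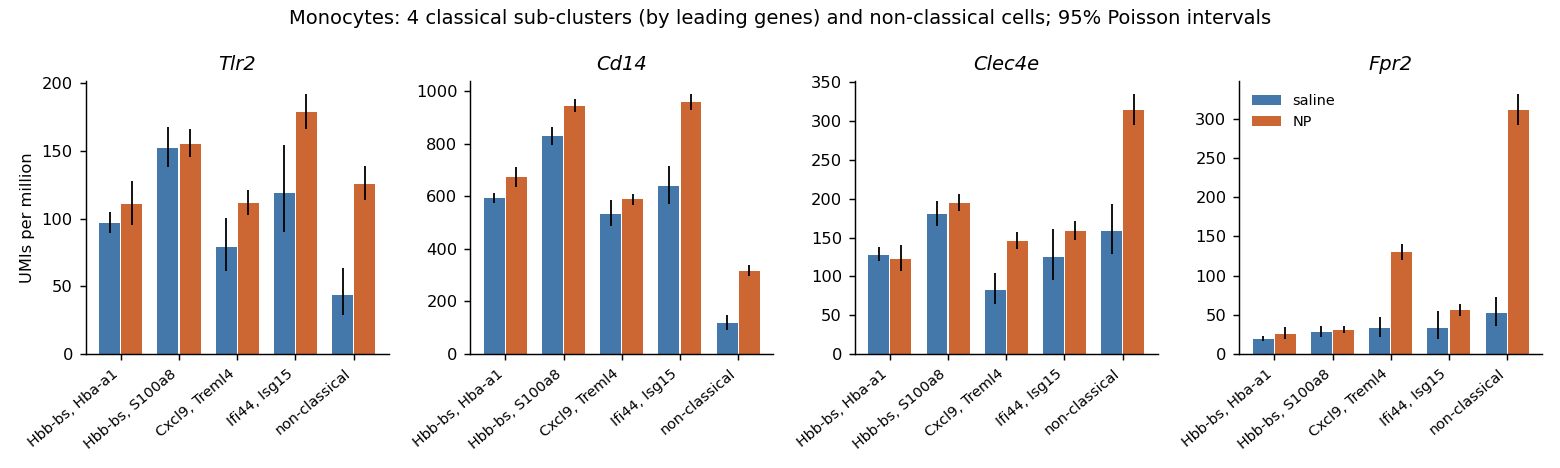
Level (CPM) of Tlr2, Cd14, Clec4e and Fpr2 in 4 classical monocyte sub-clusters, named by their leading genes, and in non-classical monocytes, in saline (blue) and NP (orange), with 95% Poisson intervals. Fpr2 is 32.5 CPM in saline and 130 CPM in NP in the Cxcl9-led sub-cluster and 51.9 and 311 CPM in non-classical monocytes, and 19.2 and 25.7 and then 28.03 and 30.8 CPM in the first 2 sub-clusters.

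Alveolar macrophages, the resident macrophages of the air spaces, had higher Cd14, at 192 CPM (177 to 209) in saline and 289 CPM (273 to 306) in NP, a 1.504-fold ratio (1.36 to 1.66), and higher Clec4d, at 21.7 CPM (16.7 to 27.8) and 40.3 CPM (34.5 to 46.8), a 1.85-fold ratio (1.38 to 2.51). Saline T cells had 32.0 CPM (26.3 to 38.6) of Clec4d, above saline alveolar macrophages, and NP T cells had 16.5 CPM. The size of the Clec4d ratio is therefore not read here either. With Clec4d still counted, 2 of 8 receptors were higher by 1.5-fold, against 2.05% of 8423 genes, and none was lower, against 3.12%. The median log2 ratio was 0.34 for the receptors and -0.03 for all genes. Tlr2, already high, was 1.32-fold (1.22 to 1.43) and Clec4e 1.46-fold (1.19 to 1.80) higher in NP. Saline Clec4e, at 48.0 CPM, was no higher than in saline T cells, at 49.0 CPM. In NP it was 70.1 CPM, against 28.4 CPM in T cells. The size of the Clec4e ratio is therefore not read. Fpr1 and Fpr2 were 1.14-fold (1.01 to 1.29) and 1.16-fold (1.07 to 1.26), and Tlr4 was 0.965-fold (0.794 to 1.18). Of the 173 NP UMIs of Clec4d, 20 were in 1 cell. The log2 ratio of Clec4d was 0.11 instead of 0.89 without cells of high doublet score, and it was -0.42 in thinned cells. That of Cd14 was 0.14 instead of 0.59 in cells with a mitochondrial share under 5%. The 12 neutrophil markers summed to 8137 CPM in saline and 5895 CPM in NP alveolar macrophages.

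In neutrophils, none of 8 receptors was 1.5-fold higher or lower, against 6.11% and 7.85% of 9559 genes. Clec4e was 1.32-fold (1.29 to 1.34), Tlr2 1.25-fold (1.19 to 1.31), Fpr2 1.22-fold (1.19 to 1.26), Cd14 1.21-fold (1.19 to 1.22), Tlr4 1.16-fold (1.05 to 1.27) and Clec4d 1.14-fold (1.11 to 1.18) higher in NP. Fpr1 was level, at 0.996-fold (0.961 to 1.03), and Tlr7 was 0.918-fold (0.683 to 1.22). The median log2 ratio of all genes in neutrophils was -0.13, and relative to it Clec4e stood at 0.53, Tlr2 at 0.45, Fpr2 at 0.42, Cd14 at 0.41, Tlr4 at 0.34, Clec4d at 0.33, Fpr1 at 0.13 and Tlr7 at 0.01, so the sign of Fpr1 and of Tlr7 turned with this scaling.

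**Figure D4:**
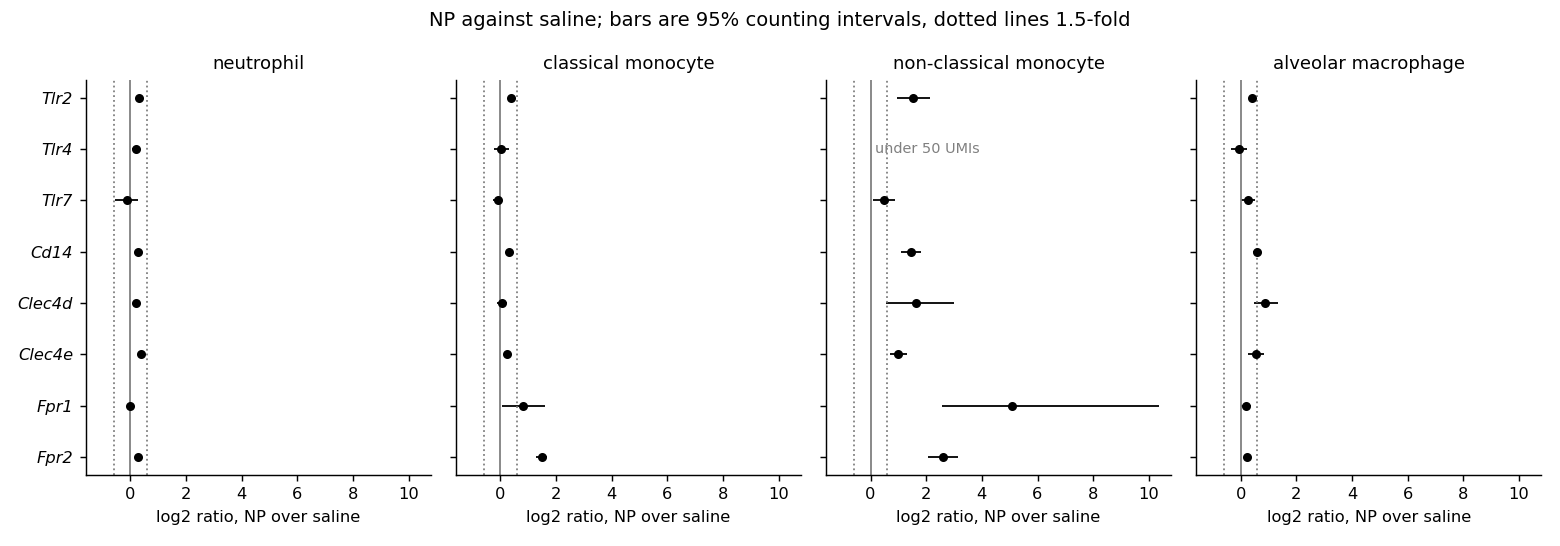
Log2 ratio of each receptor, NP over saline, in 4 phagocyte classes, with 95% counting intervals and dotted lines at 1.5-fold. All 8 points of neutrophils lie between the dotted lines, and 6 points of non-classical monocytes lie beyond them.

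Clec4d, Clec4e, Tlr4 and Fpr2, and also Tlr2, Cd14 and Fpr1, differed between neutrophil states by more than between treatments. Immature neutrophils, led by granule genes such as Camp and Ltf (655 saline and 421 NP cells), had the least Clec4d, at 68.4 and 60.3 CPM, and the most Fpr2, at 299 and 354 CPM. Terminal neutrophils, led by Apoe, Saa3 and Cxcr4 (1934 and 506 cells), had the opposite, with Clec4d at 357 and 444 CPM and Fpr2 at 145 and 148 CPM. Interferon neutrophils, led by Cxcl10, Ifi47 and Rsad2 (254 and 1265 cells), had Clec4d at 312 and 431 CPM and Fpr2 at 187 and 262 CPM. Clec4e ran with Clec4d, at 276 and 283 CPM in immature, 826 and 1112 CPM in terminal and 726 and 1010 CPM in interferon neutrophils, and so did Tlr4, at 11.8 and 13.7, 50.5 and 37.4, and 37.0 and 52.2 CPM. Fpr1 was flatter, from 106 CPM in NP terminal to 214 CPM in NP interferon neutrophils. These states were clustered without the receptors and their pathway genes, but genes that vary with them were used.

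Within the states, Clec4e was level in immature neutrophils, with a log2 ratio of 0.03 (-0.04 to 0.11), and higher in NP in terminal cells, at 0.43 (0.36 to 0.50), and in interferon cells, at 0.48 (0.39 to 0.57). Fpr2 showed another order, with 0.24 (0.17 to 0.31) in immature, 0.03 (-0.16 to 0.22) in terminal and 0.49 (0.31 to 0.67) in interferon neutrophils. Tlr4 ran in opposite directions, at -0.43 (-0.82 to -0.07) in terminal and 0.50 (0.10 to 0.91) in interferon neutrophils. Within the interferon sub-clusters the Tlr4 log2 ratios were 0.35 (-0.21 to 0.96) and 0.44 (-0.12 to 1.04), intervals that include 0. The sub-cluster with more Tlr4, at 51.2 and 65.4 CPM, held 117 of 254 saline and 753 of 1265 NP interferon cells. The part of this mix in the value of 0.50 was not tested. Interferon cells were 254 of 5608 saline and 1265 of 3101 NP neutrophils. Saline levels of the 13 neutrophil sub-clusters weighted by the NP mix gave 534 CPM of Clec4e against 506 CPM in saline and 666 CPM in NP, and 234 CPM of Fpr2 against 227 and 278 CPM. For Tlr7 the reweighted value moved further, with 2.08 CPM at the NP mix against 3.20 CPM in saline and 2.94 CPM in NP, a log2 ratio of 0.50 within sub-clusters against -0.12 overall. That value rests on few counts, as the interferon sub-clusters held 1 and 0 saline Tlr7 UMIs. In terminal neutrophils the Tlr7 log2 ratio was -0.48 (-1.45 to 0.38).

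**Figure D5:**
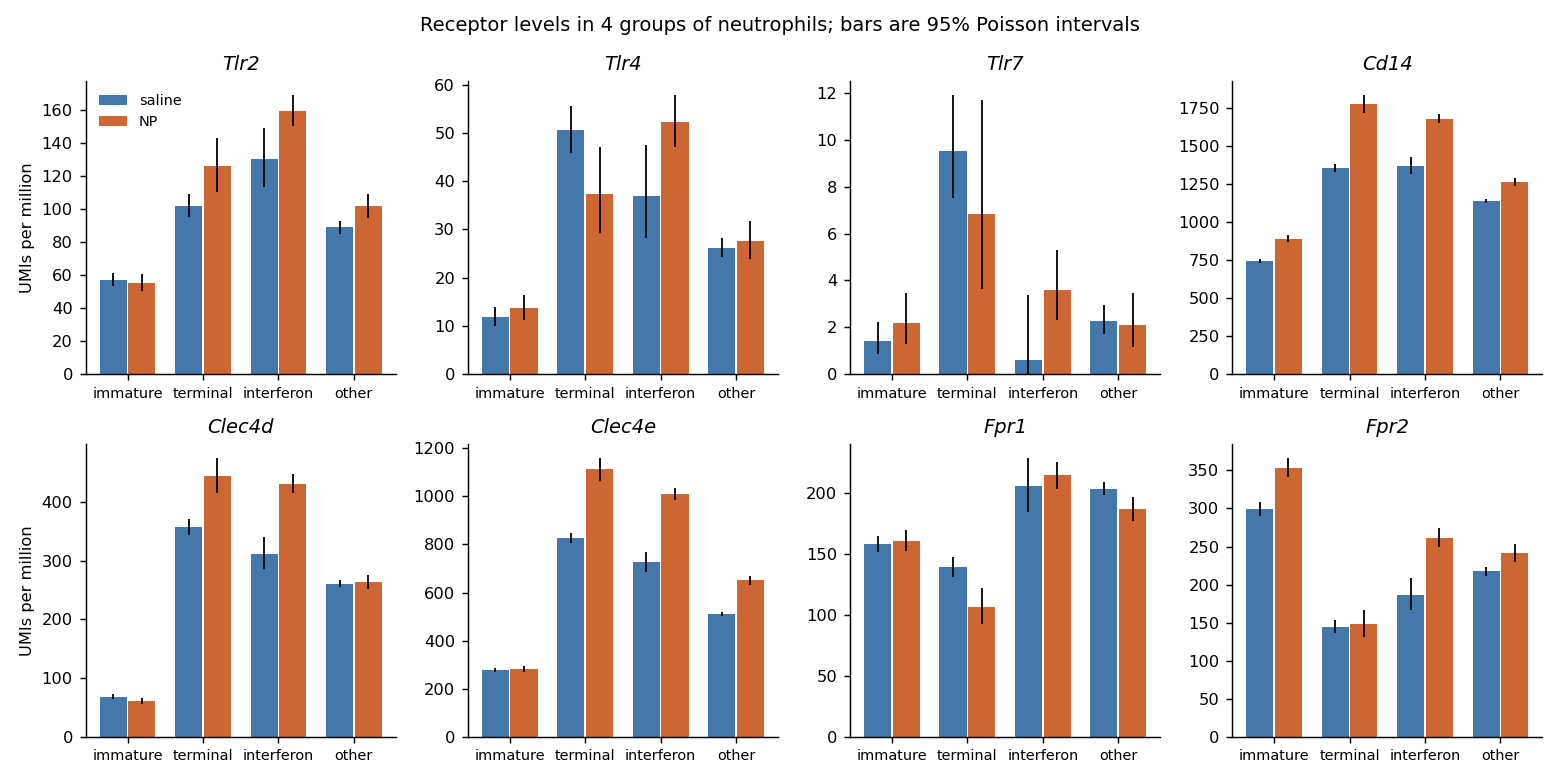
Level (CPM) of 8 receptors in immature, terminal, interferon and other neutrophils of the saline (blue) and NP (orange) libraries, with 95% Poisson intervals. Clec4d and Clec4e are lowest and Fpr2 highest in immature cells of both libraries.

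Clec4d with Clec4e and Fpr1 with Fpr2 lie next to each other in the genome (GRCm38). Clec4d is at chr6:123262111-123275265 on the plus strand and Clec4e at chr6:123281789-123289870 on the minus strand, with RefSeq starts 27764 bases apart. Fpr1 at chr17:17876471-17883940 on the minus strand and Fpr2 at chr17:17887824-17893952 on the plus strand start 3885 bases apart and point away from each other. Tlr2 is at chr3:83836272-83841767 (minus), Tlr4 at chr4:66827584-66930284 (plus), Tlr7 at chrX:167304929-167330558 (minus) and Tlr9 at chr9:106222598-106226883 (plus), and all 9 measured genes are annotated as protein coding in GENCODE vM21.

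The 250 bases before the start of Clec4d, Clec4e, Fpr1, Fpr2 and Tlr2 are shown because these genes were among the 6 receptors at least 1.5-fold higher in NP non-classical monocytes. They come from RefSeq (GRCm38.p6), read 5′ to 3′ on the strand of the gene, with matches to 5 motifs in capitals. The windows are chr6:123261857-123262106 (Clec4d), chr6:123289872-123290121 (Clec4e), chr17:17883940-17884189 (Fpr1), chr17:17887574-17887823 (Fpr2) and chr3:83841609-83841858 (Tlr2). The RefSeq start of Tlr2, chr3:83841608, lies inside its GENCODE span, so part of the Tlr2 window lies inside that span too.
Clec4d: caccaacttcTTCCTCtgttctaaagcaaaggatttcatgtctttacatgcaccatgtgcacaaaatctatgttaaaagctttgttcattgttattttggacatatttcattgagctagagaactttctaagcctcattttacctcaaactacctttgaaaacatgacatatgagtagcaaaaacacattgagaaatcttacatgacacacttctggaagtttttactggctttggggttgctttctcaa
Clec4e: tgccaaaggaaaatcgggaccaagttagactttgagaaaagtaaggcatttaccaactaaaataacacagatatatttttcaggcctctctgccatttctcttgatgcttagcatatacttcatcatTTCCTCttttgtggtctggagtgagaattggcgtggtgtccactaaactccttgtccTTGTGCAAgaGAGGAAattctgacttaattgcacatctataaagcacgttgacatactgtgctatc
Fpr1: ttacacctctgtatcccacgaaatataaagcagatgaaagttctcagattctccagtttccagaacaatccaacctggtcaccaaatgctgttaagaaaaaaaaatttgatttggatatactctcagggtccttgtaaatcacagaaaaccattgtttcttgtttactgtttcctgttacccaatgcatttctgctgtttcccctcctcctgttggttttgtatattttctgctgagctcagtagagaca
Fpr2: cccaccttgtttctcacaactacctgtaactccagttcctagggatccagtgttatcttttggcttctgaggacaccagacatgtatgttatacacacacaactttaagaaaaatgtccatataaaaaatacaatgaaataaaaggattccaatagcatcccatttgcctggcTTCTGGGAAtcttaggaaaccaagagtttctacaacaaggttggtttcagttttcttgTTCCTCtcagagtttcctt
Tlr2: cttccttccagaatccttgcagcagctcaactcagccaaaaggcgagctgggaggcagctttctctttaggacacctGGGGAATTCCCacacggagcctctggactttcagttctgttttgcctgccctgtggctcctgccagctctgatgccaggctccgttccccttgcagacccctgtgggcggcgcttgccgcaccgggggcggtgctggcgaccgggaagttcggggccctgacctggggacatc
The motifs, searched on both strands, were GAGGAA for PU.1, a factor of myeloid cells, TTGCNNAA for C/EBP, the kappaB motif, TTCNNNGAA for the STAT element GAS and the interferon element ISRE, which 23.3%, 9.56%, 45.8%, 7.02% and 2.98% of 32851 RefSeq promoter windows of this length hold. Clec4e had 2 PU.1 matches and a C/EBP match, Clec4d 1 PU.1 match, Fpr2 1 PU.1 and 1 GAS match, and Tlr2 overlapping kappaB matches. Fpr1 had none of these letters in its window. A match of letters is a description, not a binding site.

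The genes with the most similar pattern over 10 classes in both libraries (20 points, Pearson r of log2(CPM + 10), 11828 genes compared) were Csf2rb2 (r = 0.979) and Slc15a3 (0.968) for Tlr2, Ticam2 (0.980) and Naip5 (0.972) for Tlr7, and Myd88 (0.954) and Alox5ap (0.942) for Cd14. Clec4d was closest to Csf3r (0.942), the receptor of the granulocyte growth factor G-CSF, and Grina (0.930), and Clec4e to Slc2a6 (0.953) and Trem3 (0.952). Fpr1 was closest to Alox5 (0.925), the enzyme that starts leukotriene synthesis, and Rufy4 (0.913), Fpr2 to Il1rn (0.942), the interleukin-1 receptor antagonist, and Bst1 (0.925), and Tlr4 to Hebp1 (0.928) and Atp6v0c (0.910). These are descriptions, and the points share 2 libraries and their depths.

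The other genes of these pathways were read as fixed lists. Of 8 other Toll-like receptors, 5 had enough UMIs in neutrophils and none passed 1.5-fold in either direction. Over all genes of neutrophils, 6.11% were 1.5-fold higher and 7.85% lower. Tlr13, a sensor of bacterial ribosomal RNA, was 47.2 and 56.2 CPM, and Tlr6, which pairs with Tlr2, 28.2 and 30.7 CPM, while Tlr1, its other partner, was 44.3 and 39.4 CPM and Tlr8 5.81 and 5.34 CPM. In monocytes of both classes together, 5 were likewise measured and none passed, with Tlr13 at 58.7 and 76.7 CPM, Tlr6 at 14.8 and 17.2 CPM, Tlr1 at 21.3 and 20.2 CPM and Tlr8 at 18.6 and 14.8 CPM. Over all genes of these monocytes, 5.18% were 1.5-fold higher and 3.71% lower. The pooled monocytes are 644 classical and 91 non-classical cells in saline and 1032 and 352 in NP, so their mix differs. In non-classical monocytes alone, where 8.31% of all genes were higher and 8.53% lower, 1 of 4 other Toll-like receptors was higher, Tlr1 at 8.11 and 16.2 CPM, and 1 lower, Tlr8 at 27.6 and 14.6 CPM. The saline Tlr1 level rests on as few UMIs as that of Tlr4 in these cells. Its interval, 2.63 to 18.9 CPM, holds the NP level. Single genes that passed in non-classical monocytes are named in these lists after their values were seen.

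Of 7 partners and chaperones of the Toll-like receptors measured in neutrophils none passed 1.5-fold, against 6.11% of all genes higher and 7.85% lower. Ly96 was 27.7 and 28.1 CPM, Hsp90b1 25.6 and 29.2 CPM, Lbp 58.4 and 51.1 CPM and Cnpy3 31.7 and 24.9 CPM. Among 8 measured in monocytes, 1 was higher and 1 lower, against 5.18% and 3.71% of all genes. These were Cd180, a Toll-like receptor homologue, at 20.5 and 31.4 CPM, and Lbp, the lipopolysaccharide-binding protein, at 26.5 and 13.6 CPM. In non-classical monocytes alone Cd180 went the other way, at 74.6 and 57.2 CPM. Of 7 partners none was higher there and 1 lower, Ly96 at 66.5 and 36.9 CPM, against 8.31% and 8.53% of all genes. In monocytes of both classes Hsp90b1, the folding chaperone of these receptors, was 369 and 493 CPM, and Cnpy3 79.2 and 71.4 CPM.

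Signalling genes followed. Of 21 adaptors and kinases, 4 were higher in neutrophils and 5 in monocytes, against 6.11% and 5.18% of all genes, and none was lower, against 7.85% and 3.71%. In non-classical monocytes alone 1 of 17 was higher, against 8.31% of all genes, and none was lower, against 8.53%. The higher gene was Ikbke, with 1 UMI in saline and 217 in NP. Irf7, the interferon-induced factor below Tlr7 and Tlr9, was 50.8 CPM in saline and 130 CPM in NP neutrophils, and Traf3 5.59 and 9.68 CPM, while Irak4, the first kinase of the pathway, was 46.6 and 34.4 CPM and Traf6 5.46 and 3.85 CPM. In monocytes Ikbke, a kinase that activates interferon factors, was 16.6 and 35.6 CPM, Traf3 11.5 and 17.9 CPM, Tirap 19.96 and 16.6 CPM and Irf3 31.9 and 24.5 CPM. The list's median log2 ratio was -0.06 in neutrophils and 0.11 in monocytes, against -0.13 and -0.03 for all genes.

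Of 7 inhibitors of Toll-like receptor signalling measured in neutrophils, 2 were higher, against 6.11% of all genes, Tnfaip3 (A20), at 15.2 and 38.7 CPM, and Nfkbia, the NF-kappaB inhibitor that is itself an NF-kappaB target, at 361 and 848 CPM. Cyld, at 38.6 and 40.9 CPM, and Tollip, at 14.9 and 15.3 CPM, did not pass. Of 8 measured in monocytes 3 were higher and 1 lower, against 5.18% and 3.71% of all genes. Nfkbia was 171 and 380 CPM, Tnfaip3 35.6 and 77.3 CPM, Zc3h12a 33.3 and 37.6 CPM and Tollip 18.8 and 20.2 CPM. In non-classical monocytes alone 5 of 7 were higher and none lower, against 8.31% and 8.53% of all genes, with a list median of 0.91. These were Tollip, from 3 and 94 UMIs, Tnfaip3 at 59.98 and 139.7 CPM, Irak3 at 48.6 and 98.9 CPM, Tnip1 at 66.5 and 125 CPM and Nfkbia at 444 and 766 CPM.

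Of 14 other C-type lectin receptors, 4 of 8 measured were higher in neutrophils, against 6.11% of all genes, and none was lower, against 7.85%. They included Clec4a3, at 23.0 and 40.4 CPM, and Clec4n (Dectin-2), a receptor for fungal mannans, at 14.0 and 23.4 CPM, while Clec12a, at 96.2 and 116 CPM, and Clec4a2, at 123 and 138 CPM, did not pass. In monocytes none of 10 passed, against 5.18% of all genes higher and 3.71% lower. Clec2d was 71.0 and 96.3 CPM, Clec4b1 13.5 and 17.6 CPM, Colec12 175 and 147 CPM and Clec10a 17.4 and 13.6 CPM. In non-classical monocytes alone none of 8 was higher and 3 were lower, against 8.31% and 8.53% of all genes, Clec4a2 at 68.1 and 42.4 CPM, Clec4b1 at 59.98 and 20.4 CPM and Colec12 at 258 and 157 CPM. The signalling chain below them was nearly level in neutrophils, none of 11 past 1.5-fold, with Syk at 169 and 191 CPM, Ptpn6 at 296 and 329 CPM, Card9 at 27.4 and 21.3 CPM and Malt1 at 22.7 and 20.4 CPM. In monocytes 1 of 11 was higher, the protease Malt1 at 52.5 and 83.1 CPM, against 5.18% of all genes. Prkcd, which phosphorylates Card9, was 180 and 250 CPM, Bcl10 198 and 189 CPM and Card9 44.7 and 38.4 CPM. Malt1 was also the 1 of 11 that was higher in non-classical monocytes alone, at 109 and 174 CPM, against 8.31% of all genes.

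Of 16 genes of formyl-peptide receptor signalling, 11 were measured and none passed 1.5-fold in neutrophils, in monocytes of both classes or in non-classical monocytes alone. Over all genes, 6.11% were higher and 7.85% lower in neutrophils, 5.18% and 3.71% in monocytes, and 8.31% and 8.53% in non-classical monocytes. With 11 genes, none is near these shares and is not read as a result about the list. In neutrophils Pik3cg was 37.5 and 42.6 CPM, Grk2, which desensitizes such receptors, 209 and 222 CPM, Plcb2 15.7 and 14.9 CPM and Rac2 1495 and 1374 CPM. In monocytes Anxa1, a ligand of Fpr2, was 897 CPM in saline and 623 CPM in NP, Pik3r5 64.0 and 52.8 CPM, Arrb1 30.03 and 33.9 CPM and Grk2 234 and 254 CPM.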

How the data were processed

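Lungs of 4T1 tumor-bearing mice were profiled by 10x Chromium single-cell RNA-seq. The authors deposited, per library, a matrix of UMI counts from Cell Ranger (version 6.0 in the submitters' processing notes, 4 in the file headers) on mm10, with all barcodes. Barcodes entered the analysis if they had between 500 and 5000 genes detected and less than 7.5% of UMIs from mitochondrial genes. They were clustered together with Python (scikit-learn 1.9.0, leidenalg 0.10.2: 2000 variable genes without the receptors and pathway genes, 30 components, 20 neighbours, resolution 1), and clusters were named from marker lists. Mixed clusters stayed unnamed, but this rule was not applied to sub-clusters of mononuclear phagocytes, and erythroid and platelet markers did not count against their names. By mean log2 fold of its markers, the mature dendritic cell sub-cluster scored 4.06 on its own list and 2.85 on the classical monocyte list. The conventional dendritic cell sub-cluster scored 3.615 and 2.451. Cells with high doublet scores (Scrublet in scanpy 1.11.5) were left out only as an alternative. A class was compared with at least 50 cells per library and a gene with at least 50 UMIs over both libraries together. A gene was called at 1.5-fold. Members, markers and pathway lists were chosen with earlier results of these data known. Named pathway genes were the 2 highest and 2 lowest ratios per list among genes with at least 200 UMIs. Ratios carry exact conditional binomial, levels Poisson and shares binomial intervals (95%), and a count of 0 was set to 3. Scripts were tested on simulated data. The libraries held 91168129 (saline) and 90081747 (NP) UMIs, of which 77814108 and 72383286 lay in cells.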

Additional observations from a re-analysis of the deposited data

Results flagged for a closer look

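For 3 receptors, the NP over saline log2 ratios lay on opposite sides of 0 in different cells, with counting intervals that excluded 0 on both sides. The difference between the groups of cells was not tested, because each treatment is 1 library. Tlr4 was lower in terminal neutrophils, at -0.43, and higher in interferon neutrophils, at 0.50, a difference of 0.93. Within the interferon sub-clusters its log2 ratios were 0.35 (-0.21 to 0.96) and 0.44 (-0.12 to 1.04), intervals that include 0. The part of the sub-cluster mix in the value of 0.50 was not tested. Clec4d was lower in immature neutrophils, at -0.18, and higher in non-classical monocytes, at 1.65, a difference of 1.83. The size of the ratio in non-classical monocytes, and so of this difference, is not read. There the saline share of cells with a Clec4d UMI lay below that of saline T cells. Within the immature sub-clusters the Clec4d log2 ratios were -0.18 (-0.56 to 0.19), 0.12 (-0.08 to 0.33) and -0.31 (-0.78 to 0.13), intervals that include 0. The sub-cluster with the lowest level, 25.3 CPM in saline, held 216 of 655 saline and 220 of 421 NP immature cells. The part of this mix in the value of -0.18 was not tested. Fpr1 was lower in terminal neutrophils, at -0.39, and higher in non-classical monocytes, at 5.07, a difference of 5.45 that rests on 1 saline UMI.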

How the results depend on the processing

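No paired analysis was possible because each group is 1 library and the results come from no test. Each ratio was recomputed under up to 15 alternatives, 3 of them (leaving out cells with neutrophil markers, shared barcodes, and the classical monocyte sub-cluster led by haemoglobin genes) chosen after seeing the data, and 22 of 31 log2 ratios kept their sign in all of them. The counts of 6 receptors higher in non-classical monocytes and of 0 past 1.5-fold in neutrophils stayed within 1.5 times under every alternative run, the former ranging from 4, at a minimum of 200 UMIs, to 7, with each cell given equal weight. The count of 2 higher in classical monocytes was 1 with a mitochondrial share under 5%, at resolutions 0.5 and 2, with classes from marker scores, in cells thinned to 1000 UMIs, with a minimum of 200 UMIs and at 2-fold; thinning also put 1 receptor, Tlr4, among those lower. The count of 2 higher in alveolar macrophages was 1 with a mitochondrial share under 5% and without high doublet scores, and 0 at 2-fold. Fpr1 in classical monocytes reversed to -0.56 at resolution 2, and Clec4d in alveolar macrophages to -0.42 in thinned cells. Thinning also turned the sign of 4 ratios under 1.5-fold in monocytes and macrophages, Tlr4 in alveolar macrophages from -0.05 to 0.90, Tlr7 there from 0.27 to -0.42, and in classical monocytes Tlr2 from 0.38 to -0.02 and Tlr4 from 0.03 to -0.68; the cause was not tested. Of the 31 pairs of receptor and class, 25 had a larger share of positive cells in NP, and 23 after thinning. The same count over all genes was not taken, so these counts are not read as a result about the receptors. Too few UMIs were counted to form a ratio for Tlr9 in any class or for Tlr4 in non-classical monocytes. The part of sequencing depth in these low counts was not tested.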

Other observations

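In fibroblasts, Clec4e was 18.2 CPM in 112 saline cells and 89.0 CPM in 195 NP cells, and 41 of the 97 NP UMIs lay in 1 cell. In basophils, Clec4e was 109 CPM in 21 saline and 130 CPM in 39 NP cells, with a UMI in 28.6% and 25.6% of them. Interstitial macrophages had Clec4e at 184 CPM in 16 saline cells and 25.0 CPM in 35 NP cells, while their Cd14 was 1491 and 1429 CPM. In B cells, Tlr7 was 6.49 CPM in saline and 10.3 CPM in NP, with a UMI in 2.97% and 5.35% of cells. In neutrophils thinned to 1000 UMIs, 54.2% of saline and 62.6% of NP cells carried UMIs of 2 or more of the 9 receptors.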
